A study of Mus musculus with 2 samples.

Results

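The actin-based contractile apparatus was examined through 48 genes that encode smooth muscle contractile proteins, the components of stress fibres and their transcriptional regulators. The genes were chosen by symbol as actins, tropomyosins, calponins, myosins outside the sarcomere, actin crosslinkers, LIM proteins, caveolar proteins and the factors SRF and myocardin, and all 48 were found among the 17260 genes of the count table. The list was drawn up by name, with earlier results of these data known. The messenger RNA was that of mouse embryonic fibroblasts, which are connective tissue cells cultured here from embryos of embryonic day 13.5. There was 1 library of wild-type (WT) cells and 1 library of cells with the genotype label Ahi1-/-, and both carried the strain label C57BL/6 and were grown in DMEM with 10% FBS. The sources used here do not give the passage, the targeted part of Ahi1 or how many embryos or cultures each library came from.

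Stress fibres are bundles of actin filaments and nonmuscle myosin II, held together by alpha-actinin and tied to the matrix at focal adhesions. Fibroblasts that become myofibroblasts add smooth muscle actin and other smooth muscle proteins to these bundles. Many of the genes concerned are bound by serum response factor (SRF), which works with cofactors of the myocardin family. The cofactors MRTF-A and MRTF-B are held in the cytoplasm by unpolymerised actin and reach the nucleus when actin assembles. AHI1 is a protein of the ciliary transition zone.

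The WT library held 19067462 counts and the library labelled Ahi1-/- 20820678, each after rounding of the deposited expected counts. Ahi1 itself was counted 410 times in WT and 370 times in the other library (log2 ratio -0.16, with a 95% interval for counting error of -0.37 to 0.05). Its level therefore does not check the genotype label, and a gene total does not show whether an exon is absent. With 1 library per genotype there is no replicate and no test. Every ratio compares these libraries and not the genotypes, its 95% interval covers counting error only, and every direction rests on reading the column heads CON and EXP as WT and Ahi1-/-. The fibroblast label was checked on 11 marker genes, all of them detected in both libraries. Their summed level was 10198 CPM (counts scaled to library size) in WT and 42891 CPM in the other library, with Thy1 at 258 and 20631 counts and Col1a2 at 29308 and 193937. Markers of red cells and cartilage ran the other way. The 6 red cell genes summed to 446 and 5.55 CPM, and the 5 cartilage genes to 2149 and 115 CPM. In bulk RNA, fewer cells of a type and less RNA per cell cannot be told apart, and the part of these cell types in the results below was not tested.

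Contractile and stress fibre transcripts were more abundant in the library labelled Ahi1-/-. Together the 48 genes took 1.80% of all counts in WT (exact interval 1.79% to 1.80%) and 4.12% in the other library (4.11% to 4.13%). A gene was called when its scaled counts differed 2-fold or more and its higher library held 50 counts or more. By that rule 26.4% of all 12075 genes were called in either direction. Of the members, 30 of the 47 members that reached the minimum had the higher value in the library labelled Ahi1-/- and 0 had the lower, against 16.0% of all genes higher and 10.3% lower. A further 17 lay within 2-fold, and Myocd, with 5 and 29 counts, did not reach the minimum. The median log2 ratio of the 48 members was 1.55, beside -0.01 over all 14485 genes with 10 counts or more in the libraries together. A total of 46 members lay above 0, and Myl12b and Tpm3 lay below it; with chromosome medians subtracted Tpm3 lay above 0, and with total counts as library sizes Vim lay below it.

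Of the 47 members, 7 had fewer than 50 counts in WT and passed the minimum only through the other library, so they had to differ. All 7 belong to the genes counted as smooth muscle restricted further on. With at least 50 counts required in both libraries, 23 of 40 members were higher and 0 lower, against 9.45% and 9.03% of 10724 genes. The median of those 40 members was 1.27, beside -0.09 for all such genes. Just past the 2-fold limit, and so called, were Smtn at 2.27-fold, Pdlim7 at 2.32-fold and Myh9 at 2.40-fold. Just short of it were Tagln2 at 1.95-fold, Ppp1r12b at 1.92-fold and Actn4 at 1.92-fold. The plot of levels shows both values of each gene.

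**Figure D1:**
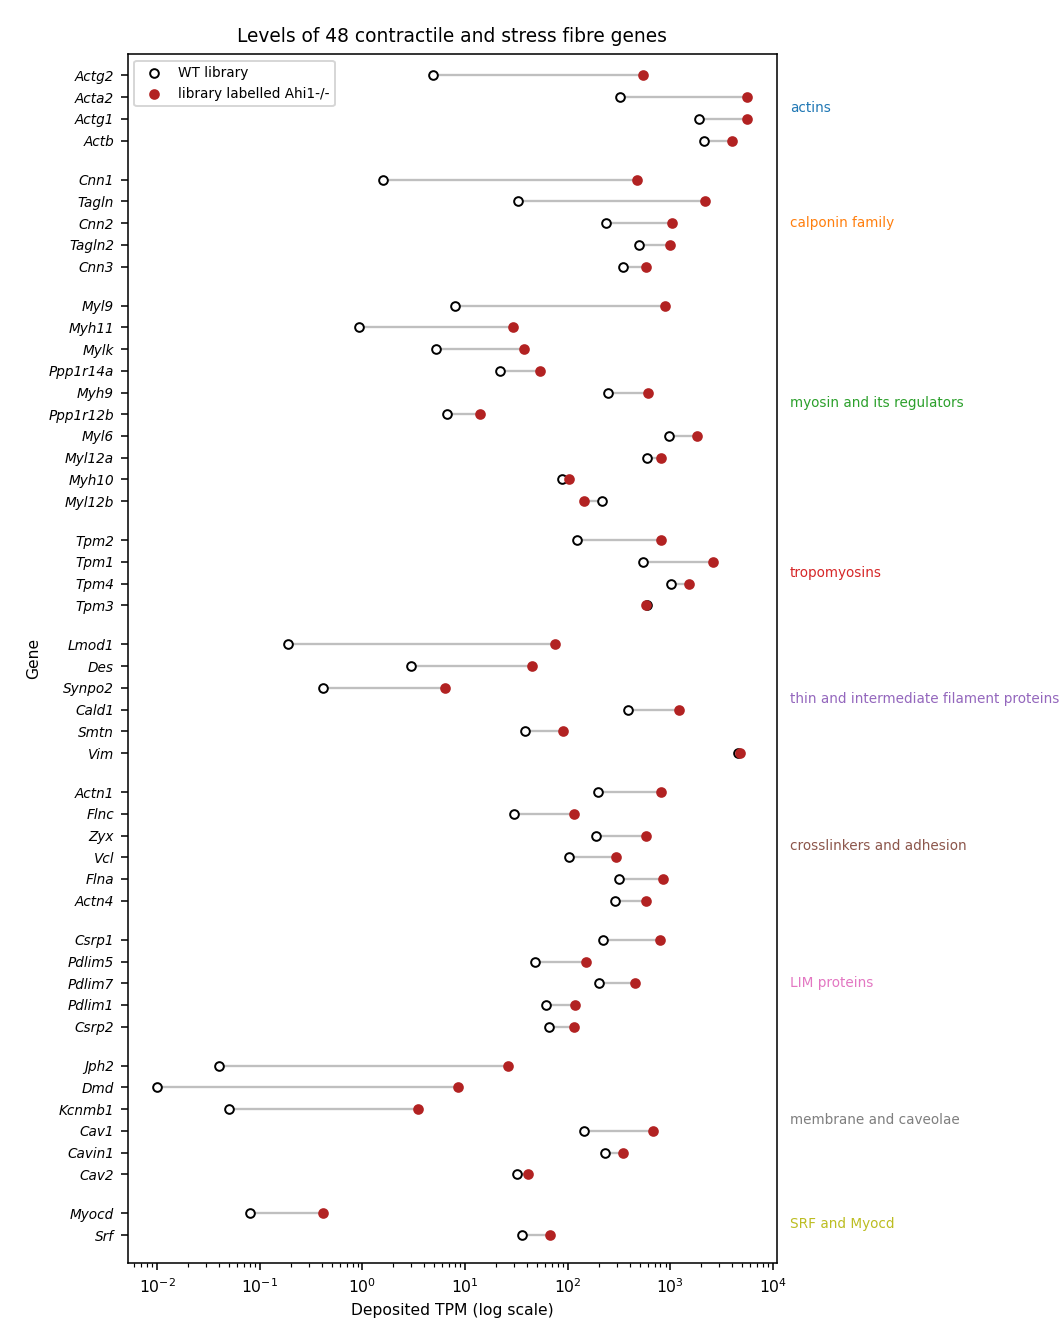
Deposited TPM (a level corrected for transcript length and library size, log scale) of the 48 genes in the WT library (open circles) and the library labelled Ahi1-/- (filled circles), grouped by role, with 1 library per genotype. The filled circle lies to the right of the open one for all genes except Myl12b and Tpm3, and the widest gaps belong to genes at under 10 TPM in WT.

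The actins are the filament subunits themselves. Acta2, smooth muscle alpha-actin and the usual marker of myofibroblasts, had 6025 counts in WT and, in the other library, 102889, which was 16.9-fold higher (interval 16.5 to 17.4). Actg2, the smooth muscle gamma-actin of gut and bladder wall, had 57 and 6285 counts, a 109-fold difference (84.2 to 144). Actg1, the cytoplasmic gamma-actin, had 33236 and 95207 counts and was 2.84-fold higher (2.80 to 2.87). Actb, the cytoplasmic beta-actin often used as a reference gene, was also not level between these libraries, with 36977 and 67451 counts (1.81-fold, 1.79 to 1.83). Every actin was thus more abundant in the library labelled Ahi1-/-, and the smooth muscle forms differed most.

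The make-up of the actin pool differed with them. On the TPM scale, which allows levels of different genes to be set side by side, Actb and Actg1 made up 48.6% and 43.9% of actin transcripts in WT and Acta2 7.38%. In the library labelled Ahi1-/- Actg1 and Acta2 stood at nearly the same level, with 5599 and 5510 TPM, or 35.9% and 35.3% of the pool, and Actb followed with 25.3%. The 4 genes together summed to 4344 TPM in WT and 15594 TPM in the other library, a 3.59-fold difference. By level among all genes, Acta2 was at rank 420 in WT and at rank 6 in the library labelled Ahi1-/-. The actin transcripts are similar but not the same: over the longest coding transcript of each gene in the reference, the share of 50-base stretches also found in another of these actins was 0.352% for Acta2, 0% for Actg2, 1.60% for Actb and 1.94% for Actg1.

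The calponin family binds along actin filaments and includes the transgelins. Cnn1, calponin 1 of smooth muscle, had 20 and 5879 counts in WT and the other library and was 291-fold higher (188 to 477). Tagln, which encodes transgelin or SM22-alpha, had 468 and 30337 counts, a 64.2-fold difference (58.6 to 70.5). The widely expressed relatives differed far less. Cnn2 had 3838 and 16278 counts (4.2-fold, 4.06 to 4.36), Tagln2 had 6144 and 12103 (1.95-fold, 1.89 to 2.01), and Cnn3 had 6355 and 10237 (1.60-fold, 1.55 to 1.65). As a share of the TPM of its own pair, Tagln went from 6.19% in WT to 68.5% in the other library, so the leading transgelin was Tagln2 in WT and Tagln in the library labelled Ahi1-/-. Cnn1 went from 0.268% to 22.8% of calponin TPM, and Cnn3, the leading calponin in WT with 59.3%, held 27.7% in the other library behind Cnn2 with 49.6%.

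Myosin II is a motor of paired heavy chains with regulatory and essential light chains. Among the heavy chains, Myh11, the smooth muscle form and a highly selective marker of that lineage, had 43 and 1466 counts (33.8-fold, 25 to 46.9). Myh9, nonmuscle myosin IIA, had 16936 and 41047 counts (2.40-fold, 2.36 to 2.45). Myh10, nonmuscle myosin IIB, had 6357 and 7271 (1.13-fold, 1.10 to 1.17). Myh11 remained a small part of the pool, with 0.276% of heavy chain TPM in WT and 3.92% in the other library, where Myh9 held 82.2%. The smooth muscle heavy chain was therefore far behind the nonmuscle form in level in both libraries.

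The regulatory light chains, whose phosphorylation switches the motor on, differed in direction. Myl9, the form of smooth muscle, had 79 and 8398 counts in WT and the other library and was 105-fold higher (84.4 to 133). Myl12a had 9297 and 12650 counts (1.35-fold, 1.31 to 1.39). Myl12b had 1802 and 1164 counts and was 1.56-fold lower, the largest downward ratio of the 48 genes (log2 -0.64, -0.75 to -0.54). Myl9 held 0.989% of regulatory light chain TPM in WT and 47.9% in the other library, at 877 TPM beside 811 TPM for Myl12a. The split between Myl12a and Myl12b is uncertain, since 29.2% of the 50-base stretches of the longest Myl12a transcript and 9.17% of those of Myl12b occur in the other gene or in Myl9. The essential light chain Myl6 had 5790 and 10787 counts (1.85-fold, 1.79 to 1.91).

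The enzymes that set light chain phosphorylation were also measured. Mylk, the myosin light chain kinase, had 243 and 1508 counts (6.15-fold higher, 5.37 to 7.07). Ppp1r14a, or CPI-17, an inhibitor of myosin phosphatase, had 98 and 239 counts (2.42-fold, 1.90 to 3.09). Ppp1r12b, a targeting subunit of that phosphatase, had 495 and 959 (1.92-fold, 1.72 to 2.14), with an interval that spans 2-fold. In all, 5 of the 10 myosin genes and regulators passed 2-fold upward and 0 downward, beside 16.0% and 10.3% of all genes. Their median log2 ratio was 1.10, and Myh11 passed the minimum only through the library labelled Ahi1-/-.

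Tropomyosins lie along the actin filament and decide which myosins and other proteins may bind it. Tpm2 had 1940 and 11010 counts (5.62-fold, 5.36 to 5.91) and Tpm1 had 8405 and 39115 (4.61-fold, 4.5 to 4.72). Tpm4 had 19574 and 28240 counts (1.43-fold, 1.4 to 1.46). Tpm3 had 11382 and 10803, 1.06-fold lower (log2 -0.09, -0.13 to -0.05), a direction that turned with chromosome medians subtracted (0.17). Tpm1 and Tpm2, the genes that give the main tropomyosins of smooth muscle, thus differed by more than Tpm3 and Tpm4. In WT the most abundant tropomyosin gene was Tpm4, with 44.7% of the family TPM, and Tpm1 held 23.8%. In the library labelled Ahi1-/- Tpm1 led with 47.2%, followed by Tpm4 with 27.5%, Tpm2 with 14.7% and Tpm3 with 10.6%.

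**Figure D2:**
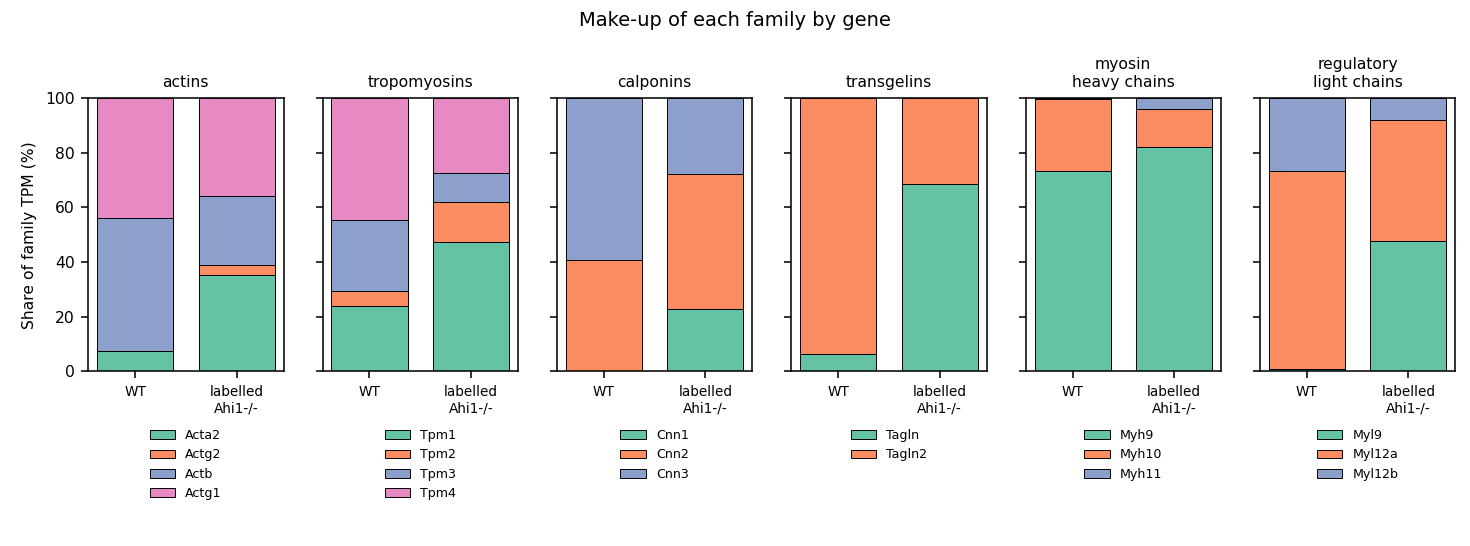
Share of each gene in the summed TPM of its family (percent, vertical axis) in the WT library and the library labelled Ahi1-/-, 1 library each. The green blocks of Acta2, Tpm1, Cnn1, Tagln, Myh9 and Myl9 are larger in the library labelled Ahi1-/- than in WT. Acta2 goes from 7.38% to 35.3% and Tagln from 6.19% to 68.5%. Myh9, the nonmuscle form, goes from 73.4% to 82.2%.

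Of 6 other filament proteins, 5 were at least 2-fold higher, beside 16.0% of all genes, and 1, Vim, stood level. Of the 5, Lmod1 and Synpo2 passed the minimum only through the library labelled Ahi1-/-. Lmod1, leiomodin 1, which nucleates actin filaments in smooth muscle, had 7 and 2671 counts (378-fold, 183 to 942). Des, the muscle intermediate filament protein desmin, had 84 and 1240 counts (14.6-fold, 11.7 to 18.5). Synpo2, the actin-binding protein synaptopodin 2, had 17 and 248 (14.5-fold, 8.85 to 25.2). These genes were all under 3 TPM in WT. Cald1, caldesmon, which binds actin and tropomyosin, was abundant in both libraries with 14685 and 45999 counts (3.10-fold, 3.05 to 3.16), and Smtn, smoothelin, had 1162 and 2665 (2.27-fold, 2.12 to 2.44). Vim, the intermediate filament protein vimentin of fibroblasts, had 76011 and 76885 counts, at rank 10 by level in both libraries. Its log2 ratio was 0.00 (-0.01 to 0.02), and it turned to -0.11 when libraries were scaled by total counts, a scaling that lowered every ratio by 0.11.

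Crosslinkers and adhesion proteins differed by similar, moderate amounts. Actn1, alpha-actinin 1, had 6884 and 27559 counts (3.97-fold, 3.86 to 4.07), while its relative Actn4 had 10418 and 20157 (1.92-fold, 1.87 to 1.96). Flnc, the muscle filamin, had 2528 and 9487 counts (3.72-fold, 3.56 to 3.89). Flna, the widely expressed filamin, had 24506 and 64863 (2.62-fold, 2.58 to 2.66). The focal adhesion proteins followed the same direction, with Zyx (zyxin) at 4055 and 12278 counts (3.0-fold, 2.90 to 3.11) and Vcl (vinculin) at 5032 and 13981 (2.75-fold, 2.67 to 2.84). The 6 log2 ratios ran from 0.94 to 1.99 around a median of 1.52, a narrower range than that of the actins, 0.85 to 6.77.

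LIM domain proteins link alpha-actinin and zyxin to other partners on the filament. Csrp1, a cysteine-rich protein of smooth muscle, had 3582 and 12737 counts (3.52-fold, 3.40 to 3.66). Csrp2 had 518 and 889 (1.70-fold, 1.52 to 1.90). Pdlim5, Pdlim7 and Pdlim1, which carry a PDZ and LIM domains, were 3.09-fold, 2.32-fold and 1.86-fold higher, with 2153 and 6717, 2588 and 6067, and 830 and 1561 counts. Of these 5 genes 3 were thus past 2-fold upward, beside 16.0% of all genes, and the median log2 ratio of the 5 was 1.22.

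Among membrane proteins, 3 ratios rest on 1 or 2 counts in WT and are loosely bounded, and they include the 2 largest of the 48 genes. Jph2, junctophilin 2, which joins plasma membrane and sarcoplasmic reticulum in muscle, had 1 and 988 counts (log2 9.94, 7.45 to 15.24). Dmd, dystrophin, had 1 and 397 (log2 8.62, 6.13 to 13.93). Kcnmb1, the beta subunit of the large-conductance calcium-activated potassium channel in smooth muscle, had 2 and 126 (log2 5.96, 4.08 to 9.03). These genes also stayed low in level, at 26.2 TPM for Jph2, 8.48 for Dmd and 3.48 for Kcnmb1 in the library labelled Ahi1-/-. Of the caveolar genes, Cav1 and Cavin1 were abundant in both libraries, and Cav2 stood at 32.4 TPM in WT and 40.7 TPM in the other library. Cav1, caveolin 1, had 3248 and 14978 counts (4.57-fold, 4.40 to 4.75), whereas Cavin1, the coat protein of caveolae, had 6836 and 10036 (1.46-fold, 1.41 to 1.5) and Cav2, the partner of caveolin 1, had 807 and 1000 (1.23-fold, 1.12 to 1.35).

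**Figure D3:**
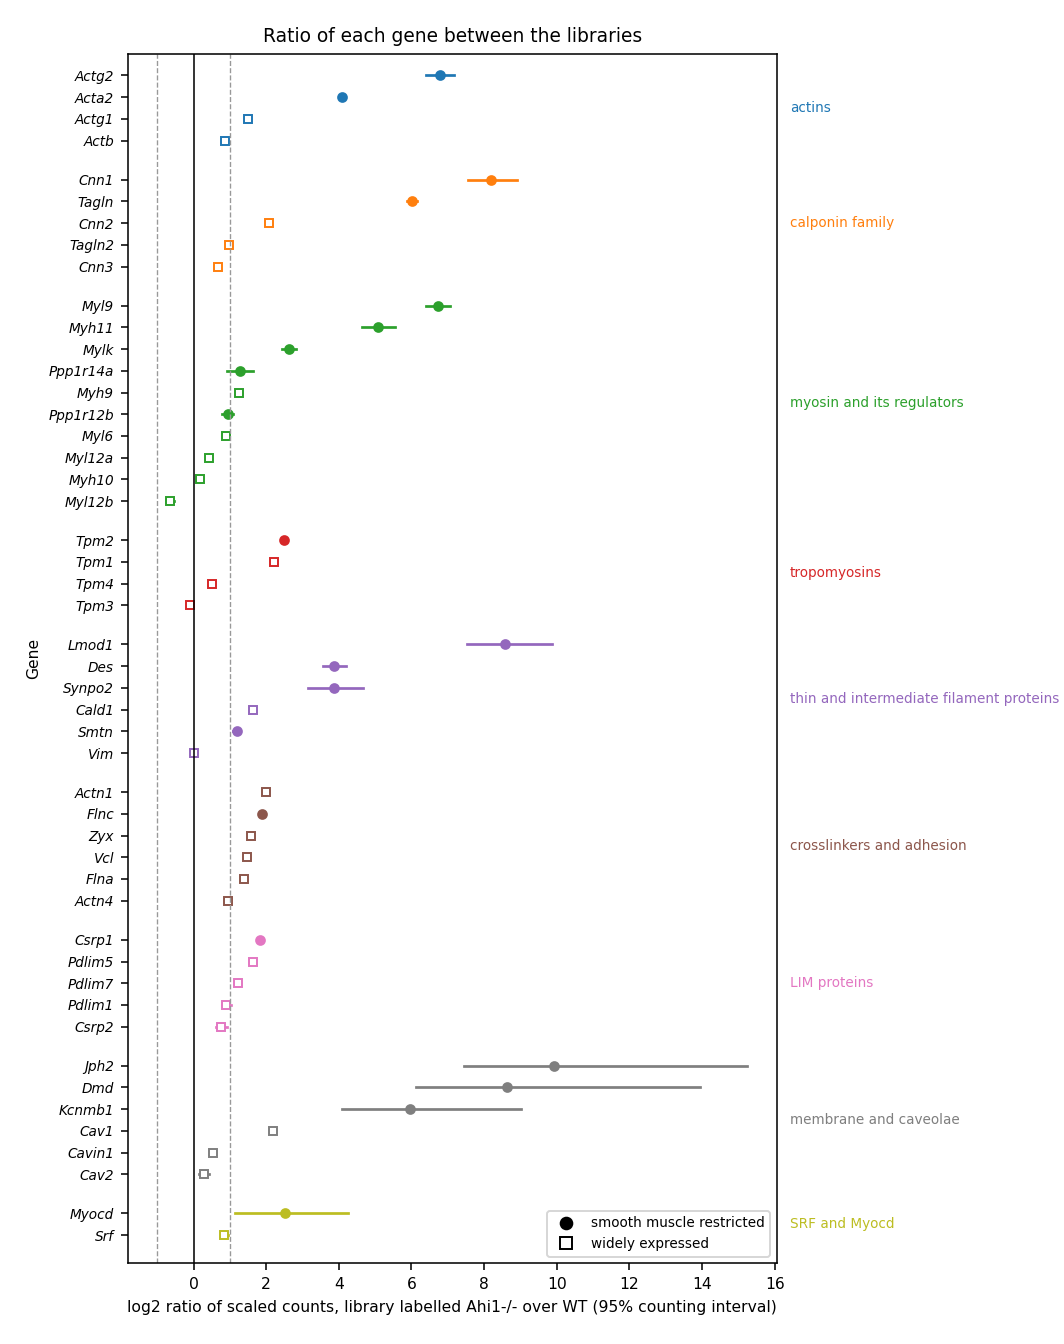
Log2 ratio of scaled counts (library labelled Ahi1-/- over WT) for each of the 48 genes with its 95% counting interval, grouped by role, with dashed lines at 2-fold. Filled circles are genes counted as smooth muscle restricted and open squares those counted as widely expressed. Myl12b and Tpm3 lie to the left of 0, Tpm3 not so with chromosome medians subtracted.

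The regulators stood at low or moderate levels. Srf had 1362 and 2478 counts (1.80-fold, 1.69 to 1.93), on 35.9 and 66.9 TPM. Myocd, myocardin, the SRF cofactor of smooth and cardiac muscle, had 5 and 29 counts (log2 2.52, 1.14 to 4.25) and was below 1 TPM in both libraries. Of 8 SRF cofactors measured from a separate list, 2 were past 2-fold upward and 0 downward, beside 16.0% and 10.3% of all genes. The median log2 ratio was 0.21, with 4 cofactors above 0 and 4 below it. The 2 past 2-fold were Fhl1 (103 and 2848 counts, 27.4-fold) and Fhl2 (741 and 1558, 2.08-fold), which encode LIM-only proteins. Mrtfa had 1255 and 2382 counts (log2 0.91, 0.81 to 1.01) and Mrtfb 1253 and 1006 (log2 -0.33, -0.45 to -0.21), and both were named after their values were seen.

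Exact matches to the CArG box, the sequence that SRF binds, were searched for on both strands in the 250 bases upstream of the start site, in RefSeq promoter windows of assembly GRCm38.p6. Windows were matched by symbol for 42 of the 48 genes, and Actg2, Actb, Tagln, Myh11, Csrp2 and Myocd had none in the table. Of the 42 genes, 7 (16.7%) held a match, and 439 of all 27025 genes with a window (1.62%) did. The stretches around these matches are shown because they are the members for which the SRF motif can be read directly beside the ratio, with the CArG box in capitals and each read 5′ to 3′ on the strand of the gene.
Dmd (chrX:82948747-82948806, + strand): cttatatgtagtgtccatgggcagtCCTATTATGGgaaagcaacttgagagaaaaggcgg
Myl9 (chr2:156775278-156775337, + strand): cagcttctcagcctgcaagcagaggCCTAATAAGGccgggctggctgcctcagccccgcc
Cnn2 (chr10:79988519-79988578, + strand): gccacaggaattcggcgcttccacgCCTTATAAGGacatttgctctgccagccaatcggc
Actg1 (chr11:120348551-120348610, - strand): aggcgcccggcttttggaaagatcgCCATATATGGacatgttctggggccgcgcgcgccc
Vcl (chr14:20929148-20929205, + strand): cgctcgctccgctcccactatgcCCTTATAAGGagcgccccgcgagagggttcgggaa
Myl6 (chr10:128493025-128493084, - strand): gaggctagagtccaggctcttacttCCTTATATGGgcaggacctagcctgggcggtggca
Srf (chr17:46556190-46556269, - strand): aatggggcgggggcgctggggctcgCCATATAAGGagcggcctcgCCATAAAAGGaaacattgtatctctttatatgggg

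Srf, which carries a pair of boxes, is among the genes its own product binds. The 7 genes ranged from a log2 ratio of 0.85 for Srf to 8.62 for Dmd, with a median of 1.51, and the 35 matched genes with no match had a median of 1.39. A match is a description of the letters in the window and not a bound site. No match means only that no exact box lay in the 250 bases searched, so the 35 genes are not a set without SRF binding. Beyond the members, 128 other genes with a match reached the minimum of 50 counts. Of these 29 (22.7%) were past 2-fold upward and 8 (6.25%) downward, around a median log2 ratio of 0.22, against 14.8% and 10.1% of the 9666 genes with a window and a median of -0.05.

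Genes counted as smooth muscle restricted differed by more than those counted as widely expressed. The first group also holds genes of muscle more widely, such as Des, Flnc and Jph2, so it is not particular to smooth muscle. The 20 restricted genes, a division made from textbook knowledge with earlier results of these data known, had a median log2 ratio of 3.98, and the 28 others one of 0.92. Of the restricted genes that reached the minimum, 18 of 19 were at least 2-fold higher, all except Ppp1r12b, and of the others 12 of 28 were, beside 16.0% of all genes. At 8-fold the counts were 12 of 19 and 0 of 28, with 5.76% of all genes past that fold. The minimum favours the restricted side of these counts, since 7 of its 19 genes and 0 of the 28 others passed it only through the library in which they were high. With 50 counts or more in both libraries, 11 of 12 restricted genes and 12 of 28 others were at least 2-fold higher, beside 9.45% of all genes. At 8-fold 5 of 12 and 0 of 28 remained past the limit, beside 1.14% of all genes, and the median log2 ratios were 2.56 and 0.92. The summed level of the restricted genes was 816 TPM in WT and 11666 TPM in the other library, and that of the widely expressed genes 16205 and 31310 TPM.

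The ratios were largest among members of low level in WT, with no steady order above that. The median log2 ratio was 5.96 for the 13 members under 10 TPM in WT, 1.04 for the 10 members at 10 to 100 TPM and 1.26 for the 25 members over 100 TPM. At the middle level 5 of 10 members were at least 2-fold higher, and at the highest level 14 of 25, beside 6.02% and 5.21% of all genes of the same level. At the lowest level 7 of the 12 members and 1000 of the 3434 genes that reached the minimum did so only through the library labelled Ahi1-/-. The minimum therefore raises the count of 11 of 12 members higher. It also raises the share of 41.6% higher and the median of 0.58 over all 3434 genes. With 50 counts or more in both libraries, 4 of 5 such members and 23.5% of 2156 such genes were at least 2-fold higher, with medians of 3.87 and 0.20. Across the 48 members the Spearman correlation between TPM in WT and log2 ratio was -0.63, a description only, since the WT value enters both measures. Acta2, at 321 TPM in WT, had the largest log2 ratio of the members over 100 TPM, 4.08.

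**Figure D4:**
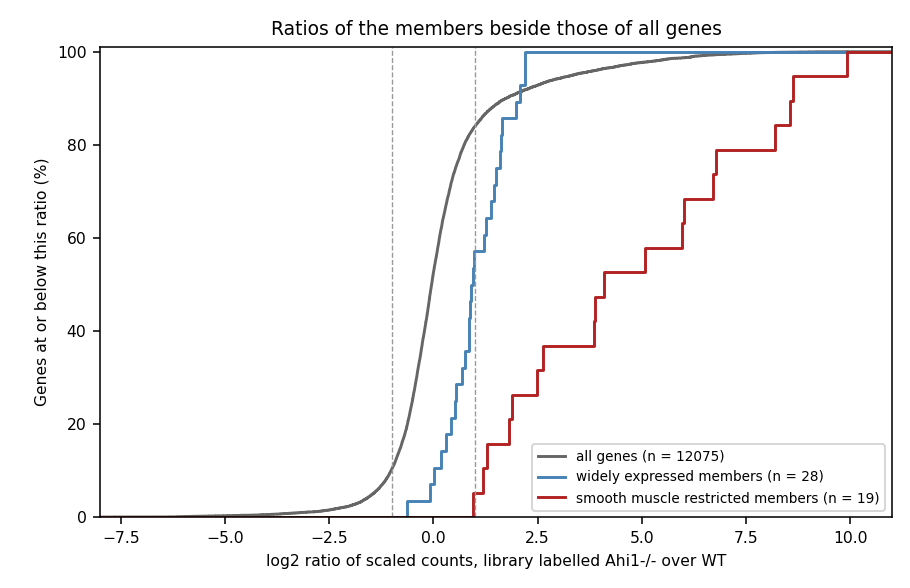
Cumulative share of genes (percent, vertical axis) at or below each log2 ratio of scaled counts (horizontal axis, drawn from -8 to 11) for all 12075 genes that reached the minimum of 50 counts, the 28 widely expressed members and the 19 restricted members. The curve of the restricted members lies to the right of both others, and that of the widely expressed members lies within 2-fold for 16 of 28 genes; 7 of the 19 restricted members reached the minimum only through the library labelled Ahi1-/-.

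Other parts of the machinery were set beside these members. Among 18 other smooth muscle genes, 10 of the 15 that reached the minimum were past 2-fold upward and 0 downward. The shares over all genes were 16.0% and 10.3%. The median log2 ratio was 2.12, and of the 16 genes behind it 13 lay above 0 and 3 below. Some of the 10, Itga8 and Gata6 among them, passed the minimum only through the library labelled Ahi1-/-. Itga8, the integrin alpha 8 chain, had 0 and 540 counts, a 178-fold difference with WT set to a floor of 3 counts. The interval of its log2 ratio started at 7.18 and had no upper limit. Gata6, a transcription factor, had 8 and 180 counts (22.3-fold), and Nexn, the actin-binding protein nexilin, had 212 and 1427 (6.67-fold). The list of 18 focal adhesion genes had 8 past 2-fold upward and 0 downward, beside the same shares of all genes. Its median was 0.89, with 14 genes above 0 and 4 below it. The largest ratio was that of Tgfb1i1, or Hic-5, an adhesion protein of myofibroblasts and smooth muscle (85 and 5552 counts, 64.7-fold), followed by Lims2 (11 and 356, 32.1-fold), Tns1 (2120 and 8318, 3.89-fold) and Lpp (2597 and 7743, 2.96-fold). Lims2 passed the minimum only through the library labelled Ahi1-/-.

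Markers of other contractile cells were counted in the same libraries. Of the 9 skeletal muscle markers only 3 were found by symbol among the counted genes, with 23 and 624 summed counts. All but 4 of these counts were from Acta1, skeletal alpha-actin (23 and 620 counts, 26.7-fold higher). Ckm had 0 and 1 counts and Myh3 0 and 3. The 6 cardiac markers summed to 8.27 CPM in WT and 2.65 CPM in the library labelled Ahi1-/-, with Myh7 at 0 in WT and Myh6 at 0 in the other library, and Tnnt2 was 5.82-fold lower (127 and 22 counts). The 6 pericyte markers summed to 123 and 256 CPM, with Kcnj8 at 0 in WT, Mcam 2.99-fold higher (496 and 1495 counts) and Cspg4 2.07-fold higher (1296 and 2707). Markers of endothelium (6 genes, 3.28 and 2.0 CPM) were low in both libraries. So were those of leukocytes (5 of 6 found, 14.2 and 24.8 CPM) and epithelium (5 of 6 found, 14.6 and 34.4 CPM). The part of pericytes and other cells in the contractile gene results was not tested.

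The deposited values hold a further readout for these genes, the effective transcript length. The count of a gene divided by its TPM follows the mean length that the authors' estimate assigned to its transcripts. Relative to all genes, this quantity lay within 5% of equality for 94.6% of the 9493 genes at 5 TPM or more in both libraries. Among the members at that level, Mylk stood at 0.875 and Tpm2 at 0.889 in the library labelled Ahi1-/- relative to WT, that is, shorter, and 1.21% of those genes lay below 0.9. Mylk gives rise to a long and a short kinase and to telokin, and Tpm2 is spliced differently in muscle and other cells. Pdlim7 stood at 1.08, longer, and 2.08% of those genes were longer by more than 5%. On the TPM scale the difference of Tpm2 was therefore larger, with 124 and 808 TPM, and that of Mylk likewise, with 5.18 and 37.6 TPM. This measure was chosen after its values were seen, and it does not name the transcripts.

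Chromosome and shared reads were recorded beside the calls. Acta2 and Pdlim1 lie on chromosome 19, where the median log2 ratio of all genes was -0.66, and Srf, Myl12a and Myl12b on chromosome 17, where it was -0.32. The members' own ratios on chromosome 19 were 4.08 and 0.90. Expected counts were whole in both libraries for 22 members, and 16 of the 21 of these that reached the minimum were at least 2-fold higher. The authors' deposited table of FPKM for 3872 genes contains 30 of the 48 members, and 29 of them were among the 30 members called higher. Pdlim7 was called here and is not among them, and Myocd is in that table without reaching the minimum used here.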

How the data were processed

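The authors deposited expected counts per gene for 17260 genes with TPM beside them, per the file headers, and a second deposited table of FPKM for 3872 genes. Bowtie2 2.2.5, RSEM 1.2.12, HISAT2 2.0.4 and the build mm8 are listed in the submitters' processing notes, without roles; the sources used here do not give annotation, strand or filters. All 6 value columns were used and 0 were left out. Counts were rounded and library sizes scaled by TMM (edgeR 4.0.16, R 4.3.3); everything else used Python 3.11.15 with scipy 1.17.1. Ratios carry exact Clopper-Pearson 95% intervals. A count of 0 was replaced by 3 in the ratio but not in the interval. A call needs 2-fold and 50 counts in the higher library, and a median 10 counts summed. The calculation was tested on simulated data. All 48 members are named; from other lists, up to 4 called genes with the largest ratios, or 2 with the most counts where none was called, except as stated. The members and lists were chosen with earlier results of these data known. Alternatives were other scalings (DESeq2 1.42.0 among them), minimums, folds, floors, unrounded counts, TPM, FPKM and chromosome centring. Promoter windows and transcripts of GRCm38.p6 were used for sequence only. The length and shared-sequence descriptions, the CArG ratios and the counts by level and group with the minimum in both libraries were added after the data were seen. Some genes and 1 list of other genes are not reported here.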

Additional observations from a re-analysis of the deposited data

How the results depend on the processing

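No paired analysis was possible because each genotype has 1 library, and no library could be left out. The count of 30 members at least 2-fold higher was 30 to 33 under the other scalings, unrounded counts, TPM and chromosome centring, 31 and 29 with a minimum of 10 and 200 counts and 39 at 1.5-fold. It was 17 at 4-fold, and 16 over the 22 members with whole counts, an alternative chosen after seeing the data; both follow from their construction. The count of lower members was 0 under all alternatives except 1 at 1.5-fold, Myl12b. The median of all 48 members was 1.43 with total counts as library sizes and 1.86 over the members with whole counts, and 1.5 to 1.6 under the others. The restricted genes had a median of 3.86 with total counts and 4.43 with chromosome medians subtracted, and the widely expressed genes 0.80 and 1.10; the fall of 0.11 with total counts is the shift of the scaling itself. Of single genes, Vim turned to -0.11 with total counts and Tpm3 to 0.17 with chromosome medians subtracted. Tagln2 passed 2-fold with upper-quartile scaling and on the TPM scale, Ppp1r12b on the TPM scale, and Actb, Pdlim1 and Srf with chromosome medians subtracted. Under total counts 6 focal adhesion genes and 1 SRF cofactor were higher, and with chromosome medians subtracted 6 focal adhesion genes were. Below about 10 counts in WT, as for Jph2, Dmd, Kcnmb1, Lmod1 and Myocd, depth limits the size of a ratio more than its direction.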
